A study of Saccharomyces cerevisiae with 20 samples.

Results

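The 4 ribosome footprint libraries of RLI1-depleted budding yeast (RLI1_depl) were compared with the 4 of NIP1-depleted yeast (NIP1_depl), 8 of the 20 libraries in the series. The libraries were chosen by the strain name in their titles. Some values of other libraries in the series are given beside them. These are the strains labelled arf1D and hrc1D (also spelled hcr1D in the series), 4 libraries each, and the libraries labelled MTF and MTFi, 2 each. Each depletion strain was profiled with EcFMT, the methionyl-tRNA formyltransferase of E. coli, in 2 libraries and with its R42L form in 2. The form of the enzyme was a covariate of the test on single features, but not of the permutation tests on shares. Per the labels, all groups lacked FMT1, the gene for the yeast's own mitochondrial formyltransferase, and expressed either form of the bacterial enzyme. Cells were grown in SC medium at 30 °C to an A600 of about 0.5, filtered, frozen and broken, the lysate was digested with RNase I, and RNA was taken from the 80S fraction of a sucrose gradient. The labels do not say how Rli1 or Nip1 was depleted, for how long, or from how many clones. Since they also do not say that replicates were grown apart, a p-value here reflects the spread among these libraries alone, and that spread may be technical.

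Both proteins act on ribosomes, at opposite ends of a round of translation. Rli1, called ABCE1 in animals, is an iron-sulfur ATPase that works with the termination factors and splits the ribosome after the peptide has been released. In yeast that lacks it, ribosomes are known to remain at stop codons and to enter 3′ untranslated regions. Nip1 is the c subunit of the initiation factor eIF3, which binds the 40S subunit and helps bring other initiation factors and the mRNA to it. FMT1, RLI1 and NIP1 were looked up first. RLI1 (R64 chromosome IV, 626708 to 628534) and FMT1 (II, 202056 to 203261) held 0 counts in each of the 8 libraries. NIP1 (XIII, 892988 to 895426) held 2 counts in NIP1_depl_EcFMT replicate 2 and 0 in the other libraries. These values do not check the labels, because abundant genes also held almost nothing under their own names.

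Total expected counts ranged from 116661 to 174629 in NIP1_depl and from 58090 to 123204 in RLI1_depl, where RLI1_depl_R42L replicate 1 was the shallowest. Open reading frame (ORF) features that the RefSeq gene table does not hold took 90.0% to 90.4% of counts in NIP1_depl and 79.4% to 84.4% in RLI1_depl. Many of these features lie on the strand opposite a known gene. Over the 8 libraries YAL037C-B, opposite the pyruvate kinase gene CDC19 (I, 71786 to 73288), held 68294.7 counts and CDC19 itself 1. YCR013C, opposite PGK1 (III, 137746 to 138996), held 24213.6 counts and PGK1 13. YLR076C, opposite RPL10, held 36552.8 counts and RPL10 0. Each value below is therefore given for a feature under its deposited name with the opposite gene beside it, and what a RefSeq gene holds under its own name is not read as its translation. For features not in RefSeq the opposite gene was inferred from systematic names or general knowledge, and no coordinates show an overlap. Coordinates printed beside such a feature are those of the named gene. Where it is placed between genes, each was a candidate by name order, and the feature may overlap either. Without RNA counts, a change in footprints on a message cannot be told apart from a change in the amount of that message.

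A smaller share of footprints lay on the most abundant features in RLI1_depl. Of the 6682 ORF features, 2575 to 3175 held at least 1 count in each RLI1_depl library. In each NIP1_depl library 2313 to 2794 did. These ranges overlapped and were not tested, and the RLI1_depl libraries were on the whole shallower. The 10 features with most counts were picked by raw counts summed over these same 8 libraries, a choice weighted to the deeper NIP1_depl libraries. They took 42.1%, 42.7%, 42.5% and 42.5% of counts in the NIP1_depl libraries and 36.5%, 36.4%, 31.9% and 32.8% in the RLI1_depl libraries. RefSeq ORFs with no gene overlapping them on the other strand, 5915 ORFs in all, took 8.24%, 8.14%, 7.93% and 7.87% of counts in NIP1_depl. In RLI1_depl they took 13.0% and 13.5% with EcFMT and 17.8% and 17.5% with R42L. No RLI1_depl library overlapped a NIP1_depl library in either of these shares. The means were 15.5% ± 2.55 in RLI1_depl and 8.04% ± 0.175 in NIP1_depl (SD, n = 4 each). The SD in RLI1_depl includes the difference between EcFMT and R42L. The difference gave p = 0.0286 in a 2-sided exact permutation test over 70 splits, the smallest p the design allows, and 0.0334 after Benjamini-Hochberg adjustment over 7 measures. Every separation of 4 libraries from 4 gives that same p. The same ORFs took 0.551% to 0.581% in arf1D, a strain labelled for the Golgi GTPase Arf1, and 2.12% to 2.57% in the strain labelled hrc1D.

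**Figure D1:**
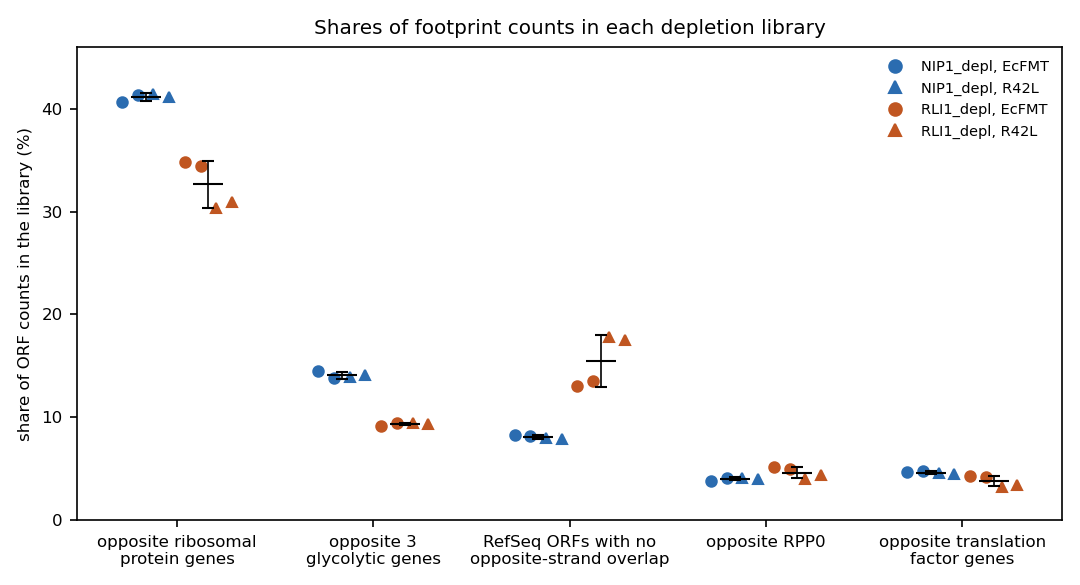
Share of ORF counts (%, y axis) on 5 groups of features in each of the 8 libraries, with circles for EcFMT and triangles for R42L; black bars are the mean ± SD of 4 libraries. The groups opposite ribosomal protein and glycolytic genes sit lower in RLI1_depl, and RefSeq ORFs with no overlapping gene sit at 13.0% to 17.8% against 7.87% to 8.24% in NIP1_depl.

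Features opposite glycolytic and ribosomal protein genes held a smaller part of the footprints in RLI1_depl. The 3 features opposite CDC19, PGK1 and GPM1, genes of lower glycolysis, took 14.5%, 13.8%, 13.9% and 14.1% in NIP1_depl and 9.14%, 9.41%, 9.44% and 9.36% in RLI1_depl. The 18 features opposite ribosomal protein genes took 40.6% to 41.5% in NIP1_depl and 30.4% to 34.8% in RLI1_depl, with the 2 R42L libraries lowest. The difference of the means was -4.72 percentage points for the first group and -8.48 for the second, each with an adjusted p = 0.0334 in the exact permutation test. Their ratio within a library, which no scaling touches, was 0.334 to 0.357 in NIP1_depl and 0.263 to 0.311 in RLI1_depl (adjusted p = 0.0334, exact permutation). In arf1D the ratio was 1.31 to 1.33 and in hrc1D 0.977 to 1.06, so both depletion strains lay below either of these strains and RLI1_depl lay lowest. Without NIP1_depl_EcFMT replicate 1, or without NIP1_depl_R42L replicate 2, the ratio test gave p = 0.0571 in the exact permutation test. The share of YLR339C, opposite RPP0, which encodes the central protein of the ribosomal stalk, was 3.82%, 4.13%, 4.07% and 4.01% in NIP1_depl and 5.16%, 4.92%, 4.00% and 4.36% in RLI1_depl. Those values overlapped, and the difference of 0.602 percentage points had p = 0.114 (exact permutation). As a share of counts on features not in RefSeq it was 1.18 points (p = 0.0286, exact permutation), and without RLI1_depl_R42L replicate 1 it was 0.806 (p = 0.0286, exact permutation). The 4 features opposite translation factor genes took 4.46% to 4.75% in NIP1_depl and 3.23% to 4.26% in RLI1_depl, a difference of -0.845 percentage points (adjusted p = 0.0334, exact permutation). Without any 1 of the NIP1_depl libraries that difference gave p = 0.0571 to 0.0857 in the exact permutation test.

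Across single features the test asked which levels differed between the strains once the enzyme form was allowed for. Levels are CPM, counts per 1000000 of the scaled library total, and for other strains unscaled CPM, counts per 1000000 of the library total. The scaling factors came from the features not in RefSeq, since the RefSeq share itself differed. Of 850 features that passed the filter on low counts, 292 were higher in RLI1_depl (34.4% of those tested) and 177 were lower (20.8%), at an adjusted p under 0.05 (edgeR quasi-likelihood, Benjamini-Hochberg). The median log2 change of all features was 0.21. Among features not in RefSeq, 102 were higher and 109 lower of 385, with a median of 0.03. That balance is set by the scaling, which centres on these same features. Relative to it, 190 RefSeq ORFs were higher and 68 lower of 465, with a median of 0.47. Of 84 features with a log2 change beyond 3 in either direction, 81 were higher and 74 of those were RefSeq ORFs. An ORF with almost no counts in NIP1_depl passed the filter only through RLI1_depl, so it had to differ, and these counts are not evidence for such ORFs as a class. The split depended on scaling: it was 258 higher and 209 lower with factors from all features, and 401 and 114 with library totals.

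**Figure D2:**
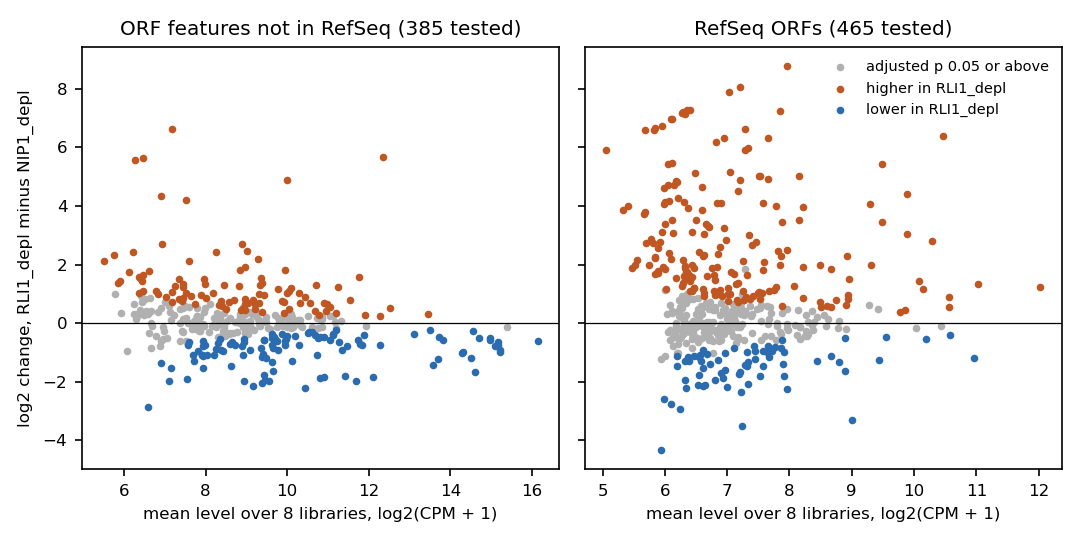
Log2 change from NIP1_depl to RLI1_depl (y axis) against the mean level over the 8 libraries (x axis, log2 of CPM + 1), 1 point a feature, for the 385 features not in RefSeq (left) and the 465 RefSeq ORFs (right). Among RefSeq ORFs many changes exceed 3 upward and few downward.

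Among the 12 features not in RefSeq that rose most, counts over NIP1_depl ran from 1 to 105. Those of the 12 with almost no counts there passed the filter only through RLI1_depl, so they had to differ. The rule that named all 12 also required levels that do not overlap. YBR056C-B, opposite the small gene MNC1 (II, 351255 to 351455), was the most abundant of them. Its levels were 285, 221, 115 and 179 CPM in the NIP1_depl libraries and 11177, 13009, 8570 and 8510 CPM in the RLI1_depl libraries. All 4 RLI1_depl libraries lay above all 4 NIP1_depl libraries, and the log2 change was 5.66 (SE 0.12, adjusted p = 1.44e-70, edgeR). It took 570 to 667 unscaled CPM in arf1D and 401 to 546 in hrc1D, so NIP1_depl lay under both and RLI1_depl above both. The libraries labelled MTF and MTFi held 74.0 to 82.0 and 65.0 to 69.1 unscaled CPM, below the unscaled 103 to 252 of NIP1_depl.

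YMR119W-A, opposite ADE17, which catalyses the last steps of purine synthesis, held 1 count over NIP1_depl and 127.3 over RLI1_depl. Its levels in RLI1_depl were 509 and 369 CPM with EcFMT and 106 and 151 with R42L, against 7.90 CPM in 1 NIP1_depl library and 0 in the other 3. YHR049C-A lies between FSH1 and SMF2 in name order, and either may be its opposite gene. SMF2 is a manganese transporter gene. The feature went from 71.3, 63.2, 86.1 and 34.0 CPM to 1370, 1389, 2575 and 2609 (log2 change 4.87, SE 0.21, adjusted p = 1.21e-42, edgeR). Here the 2 R42L libraries were the highest. YMR173W-A was placed opposite PAI3, the proteinase A inhibitor gene, by its name alone. At 1185 nt it is longer than that gene (XIII, 610159 to 610365). YMR173W-A and YLR120W-A, between the yapsin protease genes YPS1 and YPS3, each held 1 count in NIP1_depl and 59.3 and 65 in RLI1_depl. The call of YLR120W-A was lost with the EcFMT libraries alone.

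YNL303W, placed opposite the ribosomal protein gene RPS19B by its name alone, rose where most other features opposite such genes fell. Without coordinates, an overlap with RPS19B is not shown, and the same holds for the other features not in RefSeq. It was far less abundant than the features named below opposite such genes. It stood at 19.5, 0, 0 and 17.0 CPM in NIP1_depl and at 163, 202, 335 and 220 CPM in RLI1_depl (log2 change 4.34, SE 0.50, adjusted p = 4.63e-13, edgeR). With 5 counts over NIP1_depl and 92.1 over RLI1_depl, it passed the filter only through RLI1_depl and had to differ. YDL114W-A, opposite IWR1, which carries RNA polymerase II into the nucleus, stood at 0 to 39.5 CPM and at 260 to 460 CPM. YJL015C, between CCT3 and TPH3, went from 111 to 134 CPM up to 707 to 1076. Rises by 2.68, 2.47, 2.41 and 2.41 on the log2 scale were seen for YGR182C opposite TIM13, YGL165C opposite CUP2, YAL026C-A opposite SAW1 and YDL071C opposite BDF2. CUP2 encodes a copper-responsive activator and BDF2 a bromodomain protein. The level of YGL165C was 86.1 to 230 CPM in NIP1_depl and 753 to 1025 in RLI1_depl.

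The 12 features not in RefSeq that fell most had log2 changes of -2.87 to -1.84, and some of them were higher in both depletion strains than in arf1D and hrc1D. YGR139W, opposite the polyamine exporter gene TPO2 (VII, 763762 to 765606), stood at 5427, 4874, 5068 and 5536 CPM in NIP1_depl. In RLI1_depl it stood at 1116, 1153, 1836 and 1376 CPM. The log2 change was -1.97 (SE 0.11, adjusted p = 5.36e-33, edgeR), while arf1D held 61.7 to 92.9 unscaled CPM and hrc1D 163 to 241. YPL185W, between MRN1 and UIP4, showed the same order, with 2572, 2370, 2143 and 1999 CPM in NIP1_depl, 286, 475, 490 and 697 CPM in RLI1_depl, and 7.41 to 29.6 and 14.7 to 87.2 unscaled CPM in arf1D and hrc1D. The change from NIP1_depl was -2.22 on the log2 scale (SE 0.16, adjusted p = 2.8e-16, edgeR).

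YJL026C-A, opposite RNR2, a subunit of ribonucleotide reductase, fell from 1154, 853, 870 and 817 CPM to 143, 203, 291 and 218. Its level in arf1D, 2960 to 3170 unscaled CPM, was above both, and in hrc1D, at 818 to 905, it lay within the unscaled NIP1_depl range of 737 to 1020. YKL036C, opposite UGP1, which makes UDP-glucose, fell from a range of 2755 to 2924 CPM to a range of 618 to 881. YKL177W, opposite STE3, the a-factor receptor gene, went from 2773 to 3060 CPM down to 655 to 1009. Log2 changes between -2.87 and -1.91 were also found for YJL127W-A between SPT10 and MCO6, YPR016W-A between TIF6 and DSS4, YDL041W opposite SIR2, YPL205C opposite HRR25, YOR199W between BFR1 and MRM1, YMR031W-A opposite EIS1 and YOR329W-A between SCD5 and MIP1. None of these 12 features overlapped between the strains, which the rule that named them required.

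The calls were set beside the arf1D and hrc1D strains. Of the 109 features not in RefSeq that were lower in RLI1_depl, 55 had all 8 depletion libraries above all 8 libraries of arf1D and hrc1D in share of counts, 22 only the NIP1_depl libraries, and 9 only the RLI1_depl libraries below all of them. Of the 102 that were higher, 58 had only the RLI1_depl libraries above, 19 all 8, and 14 only the NIP1_depl libraries below. Over all 385 tested, called or not, 156 had all 8 above, 74 only RLI1_depl and 26 only NIP1_depl above, and 9 only RLI1_depl and 30 only NIP1_depl below. A call in either direction fixes some of these counts at or near 0. These are counts of unscaled shares with no test, and RefSeq ORFs took more of the depletion libraries than of the others.

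**Figure D3:**
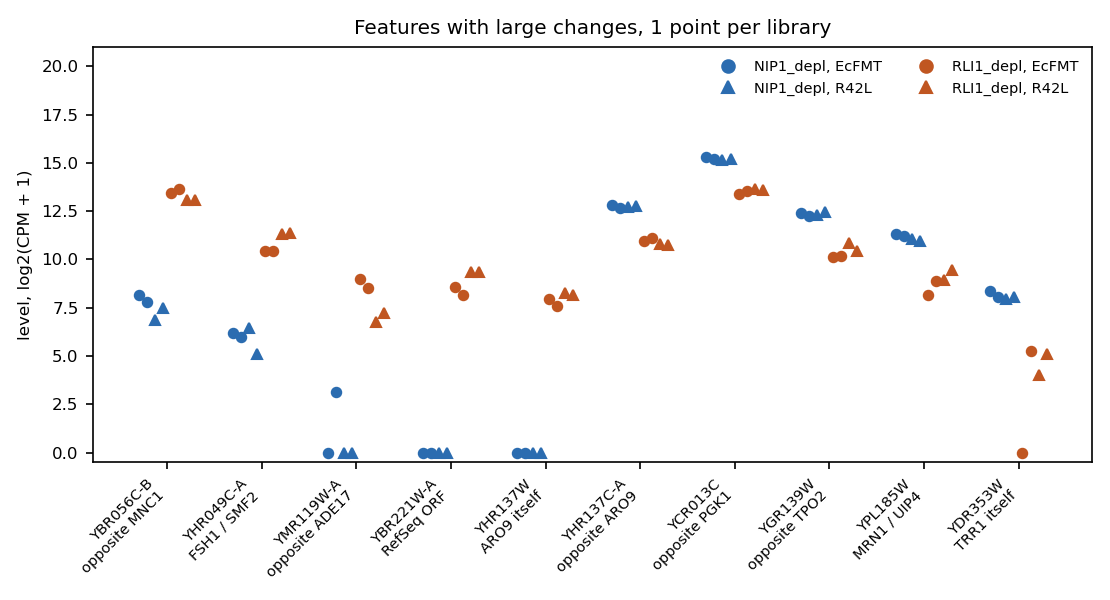
Levels (y axis, log2 of CPM + 1) of 10 features in each library of NIP1_depl and RLI1_depl, with circles for EcFMT and triangles for R42L. YHR137W, which is ARO9 itself, was at 0 in NIP1_depl and at 195 to 312 CPM in RLI1_depl, while YHR137C-A opposite it went down.

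The features were then ordered by the role of the opposite gene, and each list's calls are read beside the 34.4% higher and 20.8% lower of all 850. All 3 features opposite glycolytic genes fell (median log2 change -1.20, against 0.21 over all 850). YCR013C opposite PGK1 stood at 40465, 37782, 36010 and 37492 CPM in NIP1_depl and 10748, 11918, 12635 and 12439 CPM in RLI1_depl, which is -1.67 on the log2 scale (SE 0.07, adjusted p = 1.87e-45, edgeR). YKL153W opposite GPM1 changed by -1.20 (SE 0.06) and YAL037C-B opposite CDC19 by -0.60 (SE 0.05). The 3 features thus fell by unequal amounts, and their ranges did not overlap between the strains.

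Of 15 tested features opposite ribosomal protein genes, 13 fell and 1, YNL303W, rose (median -0.74), beside 20.8% lower and 34.4% higher of all features. YNL303W passed the filter only through RLI1_depl, so it had to differ. YPL197C opposite RPL7B fell most, from 19467, 17171, 17430 and 17245 CPM to 5980, 6758, 7344 and 6722 (log2 change -1.42, SE 0.07, adjusted p = 4.37e-35, edgeR). YPR044C opposite RPL43A went from 49516 to 52788 CPM down to 23989 to 26870, YPL142C opposite RPL33A from 25188 to 28402 down to 12252 to 14103, and YLR076C opposite RPL10 from 48767 to 51955 down to 24396 to 29718. These 3 changed by -0.98, -1.01 and -0.92 (SE 0.06, 0.07 and 0.06). YLR339C opposite RPP0 was not called, at -0.13 (SE 0.06, adjusted p = 0.0594, edgeR), a sign opposite to that of its share of all counts. The direction of the list held under each of the other 4 scalings, with medians of -0.88 to -0.41 and 11 to 14 members lower.

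Features opposite genes of translation itself were fewer. YEL034C-A, opposite HYP2, the eIF5A gene, fell from 45998, 46302, 43679 and 42773 CPM to 31846, 32514, 24432 and 25422 (log2 change -0.66, SE 0.06, adjusted p = 5.84e-18, edgeR). YLR149C-A, opposite STM1, whose protein binds idle ribosomes, fell by 0.75 (SE 0.14). YPL238C, opposite the eIF2 beta gene SUI3, was called lower at -0.40 (SE 0.10, adjusted p = 0.000979, edgeR), but the levels overlapped, 4005 to 4688 CPM against 2433 to 4083, and the call was lost with library totals and with the EcFMT libraries alone. YOR277C, opposite CAF20, the gene for a repressor of cap-dependent initiation, had -0.15 (adjusted p = 0.367, edgeR). Among 5 features opposite ribosome biogenesis genes, 2 rose and 2 fell, beside 34.4% and 20.8% of all features. YMR290W-A opposite the helicase gene HAS1 had -0.76 and YLR198C opposite NOP56 had -0.53, while YKL083W opposite RRP14 had 0.72 and YCR047W-A opposite the methyltransferase gene BUD23 had 0.75. The calls of YKL083W and YCR047W-A were lost with the R42L libraries alone, that of YCR047W-A also in DESeq2, and that of YLR198C with library totals and with the EcFMT libraries alone.

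YDL228C, opposite SSB1, an Hsp70 that binds nascent chains on the ribosome, fell from 19460, 19017, 18014 and 17927 CPM to 7305, 8818, 7623 and 8115 (log2 change -1.22, SE 0.07, adjusted p = 3.55e-31, edgeR). YAL004W, opposite the cytosolic Hsp70 gene SSA1, fell less, by 0.49 (SE 0.07). YJL009W, opposite the chaperonin gene CCT8, rose from 247 to 269 CPM to 579 to 696 (log2 change 1.28, SE 0.20, adjusted p = 1.53e-08, edgeR). YLR217W opposite the cyclophilin gene CPR6 was called at 0.28 and lost that call under 5 alternatives. Of 7 tested features opposite chaperone genes, 2 rose and 2 fell (median 0.02), a share near that of all features (34.4% higher, 20.8% lower). The median of this list, and those for initiation, amino acid metabolism, N-terminal processing and lipids, changed sign with the scaling.

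In metabolism, YHR137C-A, opposite ARO9, an aromatic aminotransferase gene, fell from 7184, 6486, 6811 and 6854 CPM to 1965, 2245, 1759 and 1704 (log2 change -1.83, SE 0.10, adjusted p = 7.22e-35, edgeR). YNL103W-A opposite the leucine synthesis gene LEU4 rose by 0.69 (SE 0.14), and YER090C-A opposite TRP2 had 0.00 (SE 0.31). Of 4 features opposite stress and reserve carbohydrate genes, 3 fell and 1 rose, beside 20.8% lower and 34.4% higher of all features. YDL023C opposite GPD1, which makes glycerol phosphate, fell from 16982 to 18264 CPM to 10424 to 12635, and YPR160C-A opposite the glycogen phosphorylase gene GPH1 fell by 1.08 (SE 0.28). YDL011C, placed opposite the glutaredoxin gene GRX6 by its name, rose by 1.09 (SE 0.14).

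Both features opposite respiratory genes were called higher. YOR135C opposite IDH2, a citric acid cycle gene, rose from 4975, 4677, 4735 and 4975 CPM to 7134, 7051, 6303 and 6881 (log2 change 0.50, SE 0.08, adjusted p = 1.02e-07, edgeR). YBL100C opposite ATP1 had 0.24 and lost its call under 7 alternatives, among them leaving out NIP1_depl_R42L replicate 1 (0.21) or RLI1_depl_R42L replicate 1 (0.17). None of 3 features opposite mitochondrial ribosome genes was called, with values of 0.05 to 0.26. The translocon gene SEC61 has YLR379W opposite it, which rose by 0.69 (SE 0.12). YMR307C-A opposite GAS1 (0.30), YDL096C opposite PMT1 (-0.15), YMR135W-A opposite GID8 (0.25), YPR050C opposite MAK3 (-0.13), YLR101C opposite ERG27 (-0.17) and YKL111C opposite ABF1 (-0.08) were not called. YMR272W-A opposite SCS7 had -0.69 and YNL170W opposite PSD1 had 0.84. Both were called with overlapping levels. YNL170W lost its call under 7 alternatives, which included leaving out NIP1_depl_R42L replicate 1 (0.61), RLI1_depl_EcFMT replicate 1 (0.73) or RLI1_depl_R42L replicate 2 (0.60). Of the lists with a single tested feature, that for iron-sulfur clusters and iron uptake was called higher (1.22), and those for ribosome-associated quality control (0.17) and meiosis (0.51) were not called. The 1 listed proteasome feature did not pass the filter.

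Counts on RefSeq ORFs were higher in RLI1_depl by a larger factor where the next gene faced the ORF closely. RefSeq ORFs with no gene overlapping them on the other strand were grouped by the next gene beyond their own 3′ end. Those that overlap a convergent neighbour formed a further class. Other ORFs overlapped by a gene on the other strand were left out. Among them was EMI1, opposite GRX2, which also has a gap of 0 to 100 nt. Its log2 change was -1.21, and its mean level (log2 of CPM + 1) was 10.97, against 8.18 for ALK1, the largest ORF kept in that class. That gene was convergent if it lay on the other strand and ended toward the ORF, and tandem if it lay on the same strand. For a convergent pair the gap is the distance between the facing ends of the coding regions, so the sequence past the stop codon of 1 gene runs toward or into the other. The 369 ORFs with a gap of 0 to 100 nt took 0.371%, 0.390%, 0.406% and 0.357% of counts in the NIP1_depl libraries. They took 1.24%, 1.34%, 1.65% and 1.63% in the RLI1_depl libraries. The groups did not overlap, and the ratio of the means was 3.85. For 2872 tandem ORFs the shares were 4.70% to 4.86% and 6.38% to 8.65%, a ratio of 1.60. No test was applied to these classes, which were drawn up with earlier results of these data known.

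The ratio was highest within 150 nt. It was 3.48 for gaps of 0 to 50 nt, 4.05 for 51 to 100 nt, 3.36 up to 150 nt, 2.25 up to 200 nt and 2.26 up to 250 nt. Past 250 nt it was 1.43 to 2.13 by bin, beside 1.60 for tandem ORFs. In the 3 nearest bins the lowest RLI1_depl library stood at 2.88 times the NIP1_depl mean, and in the tandem class the highest stood at 1.81 times. These sums cover every ORF of a class, with no filter on counts. Grouped by the gene before the 5′ end, the ratio was 1.92 where that gene was divergent and 1.93 where it was tandem.

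**Figure D4:**
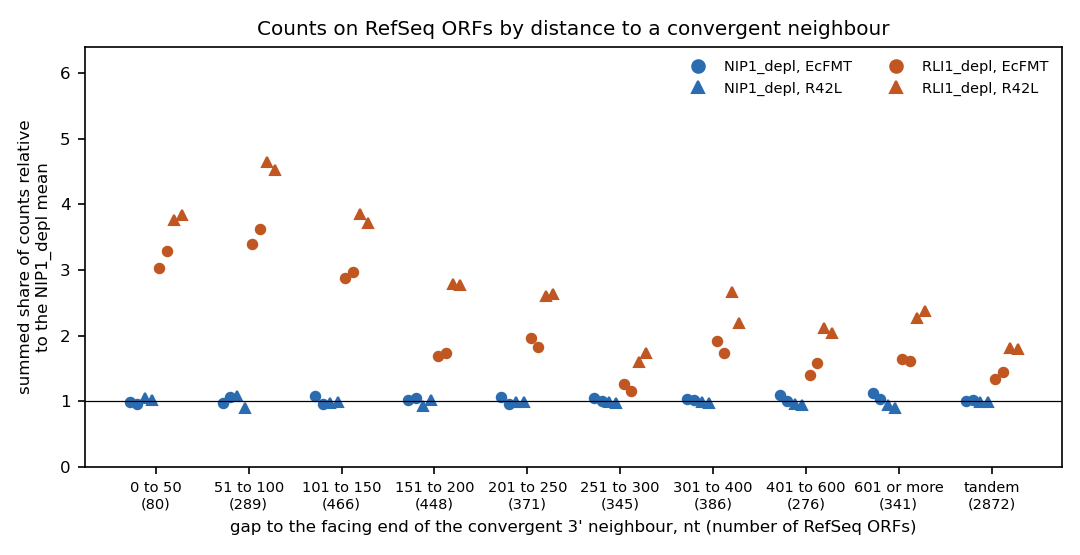
Summed share of counts on RefSeq ORFs relative to the NIP1_depl mean (y axis, ratio) by the gap in nt to a convergent 3′ neighbour and for tandem ORFs (x axis, with the number of ORFs), 1 point per library. RLI1_depl libraries stand at 2.88 to 4.65 for gaps up to 150 nt and at 1.34 to 1.81 for tandem ORFs, and R42L libraries stand above EcFMT libraries in each bin. ORFs overlapped by a gene on the other strand are left out.

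Within a library, dividing the counts of the 0 to 100 nt class by those of the tandem class removes depth and scaling. That ratio was 0.195, 0.193, 0.191 and 0.191 in RLI1_depl and 0.0775, 0.0802, 0.0854 and 0.0761 in NIP1_depl. The means were 0.193 ± 0.0018 and 0.0798 ± 0.0041 (SD, n = 4 each). All 16 libraries outside RLI1_depl stayed between 0.0495 and 0.0854, with 0.0629 to 0.0791 in the libraries labelled MTF, 0.0649 to 0.0786 in those labelled MTFi, 0.0601 to 0.0767 in arf1D and 0.0495 to 0.0671 in hrc1D. NIP1_depl thus lay at or slightly above the upper end of the other strains, although its share on RefSeq ORFs was above that of arf1D and hrc1D. The EcFMT and R42L libraries of RLI1_depl, which differed in that total, had nearly the same ratio.

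**Figure D5:**
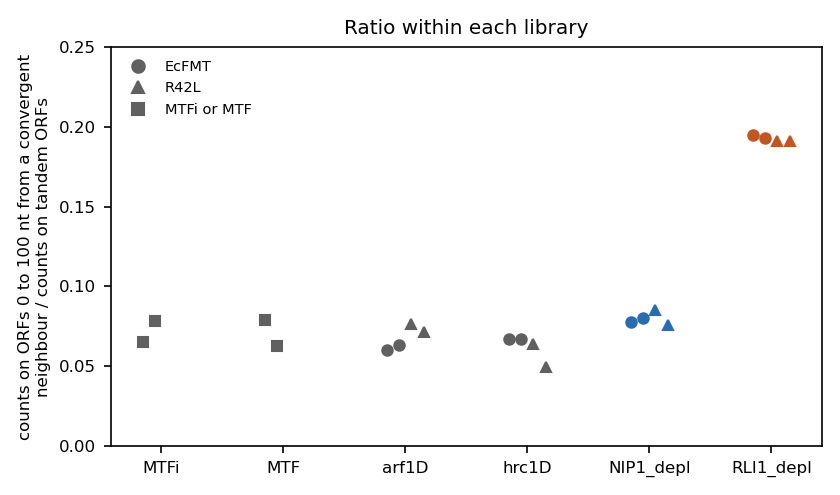
Counts on RefSeq ORFs 0 to 100 nt from a convergent neighbour divided by counts on tandem ORFs (y axis, ratio) in each of the 20 libraries by strain (x axis). The 4 RLI1_depl libraries lie at 0.191 to 0.195 and the other 16 between 0.0495 and 0.0854. ORFs overlapped by a gene on the other strand are left out.

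Single ORFs of the class show how uneven it was. The 12 with the highest mean share over the 8 libraries, a choice made after the values were seen, included 9 called higher, 1 called lower and 2 not called. Of all RefSeq ORFs tested, 40.9% were called higher and 14.6% lower. Members with almost no counts in NIP1_depl passed the filter and entered this ranking only through RLI1_depl, so they had to be higher. These calls are a description and lend no support to the class. TRM12 (YML005W, XIII, 260221 to 261609), 95 nt from the facing end of the glyoxalase gene GLO1, held 6 counts in NIP1_depl and 164.4 in RLI1_depl. TSC11 (YER093C), 87 nt from IES5, held 5 and 152.7. CTF8 (YHR191C), 50 nt from ERG9, which encodes squalene synthase, held 2 and 133.4. PTH2 (YBL057C), 92 nt from SHP1, held 2 and 124.5. Their log2 changes were 4.91, 5.03, 5.97 and 5.90 (SE 0.40, 0.43, 0.52 and 0.53).

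Other ORFs with a gap just as short did not rise. ALK1 (YGL021W), 95 nt from GET1, held 149 counts in NIP1_depl and 116 in RLI1_depl (log2 change -0.12, adjusted p = 0.662, edgeR). SNO1 (YMR095C), 23 nt from CTF13, held 138 and 100 (-0.24, adjusted p = 0.407). EEB1 (YPL095C), 52 nt from PNG1, fell by 0.94 (SE 0.28, adjusted p = 0.00252, edgeR). Without ALK1, its largest member, the class had a ratio of 4.06. Over the 46 members that passed the filter, 37 were called higher and 3 lower, beside 74 and 36 of 229 tandem ORFs, with the same limit on what passed.

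The 6 RefSeq ORFs named as most increased held at most 1 count in NIP1_depl, so they passed the filter only through RLI1_depl. YBR221W-A (II, 666538 to 666642) lies 77 nt from PCS60, and stood at 0 in every NIP1_depl library and at 385, 281, 662 and 648 CPM in RLI1_depl. BNA7 (YDR428C), 67 nt from the proteasome gene RPN9, stood at 0 and at 111, 210, 199 and 149 CPM. ARO9 (YHR137W, VIII, 375709 to 377250), 104 nt from YHR138C, stood at 0 and at 247, 195, 312 and 288 CPM. Against a floor of 3 counts over the NIP1_depl group, these 3 were at least 78.7-fold, 27.9-fold and 42.3-fold higher.

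EFG1 (YGR271C-A), an rRNA processing gene 105 nt from SLH1, held 0 counts in NIP1_depl and 72.6 in RLI1_depl, at least 28.8-fold higher. EST2 (YLR318W), the telomerase gene, 121 nt from BUD6, held 1 and 199.2 counts (log2 change 7.24, SE 0.51, adjusted p = 2.78e-25, edgeR). ADF1 (YCL058W-A, III, 23584 to 23925) lies inside FYV5 on the other strand and stood at 0 in NIP1_depl and at 219, 309, 383 and 258 CPM in RLI1_depl, at least 47.6-fold higher. In arf1D and hrc1D none of the 6 passed 11.0 unscaled CPM in any library. Their positions are given as a description and lend no support to the classes above.

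Of the 6 RefSeq ORFs named as most decreased, 5 were tandem and 1, UGA1, was 328 nt from its convergent neighbour VMA7. These positions are also only a description and lend no support to the classes. All but YDL159W-A held at most 10 counts over RLI1_depl and passed the filter only through NIP1_depl, so they had to differ. The rule that named them also required levels that do not overlap. UGA1 (YGR019W), a GABA transaminase gene, stood at 130, 103, 153 and 76.5 CPM in NIP1_depl and at 9.54, 0, 0 and 8.39 CPM in RLI1_depl (log2 change -4.32, SE 0.74, adjusted p = 2.46e-07, edgeR). TRR1 (YDR353W), the cytosolic thioredoxin reductase gene, stood at 331, 269, 249 and 264 CPM and at 0, 37.7, 15.3 and 33.6 CPM (-3.52, SE 0.40). YDL159W-A (IV, 172182 to 172313) stood at 992, 980, 899 and 859 CPM and at 57.2, 90.4, 76.5 and 143 CPM (-3.29, SE 0.23). HXT11, IOC2 and NAF1 changed by -2.94, -2.76 and -2.58, and the call of IOC2 was lost with the R42L libraries alone. TRR1 took 7.41 to 12.3 unscaled CPM in arf1D and 14.7 to 36.4 in hrc1D, so its level in RLI1_depl lay near that of those strains.

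Convergent ORFs that overlap their neighbour were a further 54. Their summed share was 0.236%, 0.226%, 0.220% and 0.214% in NIP1_depl and 0.724%, 0.737%, 0.761% and 0.817% in RLI1_depl, a ratio of 3.39. Among the position classes, this was the one in which the other strains, at 0.355% to 0.391% in arf1D and 0.290% to 0.318% in hrc1D, lay above NIP1_depl. Splitting the class was a choice made after its values were seen. The 46 ORFs that overlap the neighbour in part had a ratio of 3.89 and the 8 that lie wholly inside it 2.16.

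YBL071C, which shares 4 nt with the diphthamide gene KTI11, held 2 counts in NIP1_depl and 169 in RLI1_depl. YMR316C-A, which runs 174 nt into DIA1, held 36 and 509.5, and HUR1, 181 nt into the calcium pump gene PMR1, held 19 and 178. The last 2 changed by 4.07 (SE 0.23) and 3.46 (SE 0.32). Within their neighbours, SLM6 inside REI1 held 142 and 146 counts and NAG1 inside IMO32 held 112 and 93, with log2 changes of 0.26 (SE 0.22) and -0.01 (SE 0.25). VAM10 inside VPS5 had 1.24 (SE 0.26), and ADF1, also inside its neighbour, was at 0 in NIP1_depl. Not every partly overlapping ORF rose by much: AUA1, 167 nt into WWM1, had 0.38 (SE 0.15), and YLR358C in RSC2 (0.45, SE 0.32) and BUD25 in HEM14 (-0.36, SE 0.34) were not called. The deposited values are 1 number per feature, so where in an ORF the footprints lay, and in which frame, was not tested.

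The form of the enzyme was then compared within each strain. Between EcFMT and R42L the edgeR test called 0 of 850 features in NIP1_depl, with 49 at an unadjusted p under 0.05, and 20 higher and 37 lower with EcFMT in RLI1_depl. The difference between these effects itself was called for 27 features (3.18%), 11 with a positive and 16 with a negative interaction. Leaving out 1 library moved these counts to 2 to 15 and 7 to 19. YER066C-A, between RRT13 and RGI1, a gene of respiratory growth, stood at 681, 498, 469 and 485 CPM in NIP1_depl and at 257 and 226 CPM with EcFMT and 719 and 688 with R42L in RLI1_depl. Its interaction was -1.85 on the log2 scale (SE 0.36, adjusted p = 0.000412, edgeR). YBR178W opposite EHT1, an ethanol acyltransferase gene, had -0.91 (SE 0.18, adjusted p = 0.0006), and the RefSeq ORF YAL064W-B had -2.95 (SE 0.63, adjusted p = 0.00161). Positive interactions were found for YPL238C opposite SUI3 (0.64, SE 0.16), YGL123C-A opposite RPS2 (0.41, SE 0.10) and YGR160W between NSR1 and RTS3 (0.75, SE 0.19). YGL123C-A stood at 12173 to 12982 CPM in NIP1_depl, and at 12741 and 11284 with EcFMT and 9302 and 9567 with R42L in RLI1_depl. The share on RefSeq ORFs and the depth also differed between EcFMT and R42L in RLI1_depl, and their part in these calls was not tested.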

How the data were processed

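Footprint libraries of RLI1_depl and NIP1_depl yeast were compared, 4 of each. Per the submitters' processing notes, STAR 2.7.2b and RSEM 1.2.31 were used with the R64 build, and the strand setting is not stated there. The authors deposited RSEM expected counts for 7127 features per library, not scaled for depth, and these were rounded for the tests. Depth was 58090 to 174629 expected counts per library. A count of 0 over a group allows up to 3 counts, for counting error only. That limit is 5.32 unscaled CPM in NIP1_depl and 7.93 unscaled CPM in RLI1_depl. Rows that are not ORFs held 0.014% of counts and were left out.

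Of 6682 ORF features, 6008 matched the RefSeq table (R64) by locus tag and 674 did not. For the latter systematic names, which carry order and strand, gave the opposite gene, with 1 candidate for 348, several for 231 and none for 61, and for 34 it was written from general knowledge after the counts were seen, in part from how abundant the feature was. Coordinates were used for RefSeq genes, with an overlap of at least 30 nt. The members, the 20 gene lists and the position classes were chosen with earlier results of these data known.

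edgeR 4.0.16 in R 4.3.3 fitted strain and enzyme form to the 8 libraries (robust quasi-likelihood, filterByExpr at a minimum count of 10). TMM factors from features not in RefSeq were 0.883 to 0.902 in NIP1_depl and 1.08 to 1.14 in RLI1_depl. P-values were adjusted over 850 features by the Benjamini-Hochberg method; the biological coefficient of variation was 0.12. SE is the absolute log2 change over the square root of F. Shares were compared by exact permutation over 70 splits. The rule for names took the 3 target genes, up to 12 features not in RefSeq and 6 RefSeq ORFs per direction (called, at least 50 counts, no overlap between strains, largest change), up to 4 of smallest p per list with at least 2 tested features, and up to 3 per direction for the interaction. Members of position classes were named outside it. Alternatives were other scalings, DESeq2 1.42.0, no filter, all 20 libraries, either enzyme form alone, a replicate block and leaving out each library. The script was tested on simulated data. No genome sequence was used.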

Additional observations from a re-analysis of the deposited data

Results flagged for a closer look

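In 13 of 174 groups of 4 libraries 1 library lay far from the other 3, a test that chance meets in about 1 in 20 groups. In NIP1_depl the far value was NIP1_depl_EcFMT replicate 1 for YJL026C-A (1150 CPM), YLR120W-A (6.48), YAL037C-B (91800), YPL197C (19500) and YER066C-A (681), and NIP1_depl_EcFMT replicate 2 for YKL177W (2770) and YMR119W-A (7.90). It was NIP1_depl_R42L replicate 1 for YMR173W-A (9.57 CPM) and NIP1_depl_R42L replicate 2 for YLR318W (8.50) and YLR198C (1170). The values under 10 CPM are single counts beside 3 libraries at 0. In RLI1_depl the far values were RLI1_depl_EcFMT replicate 2 for YGR271C-A (266 CPM) and YAL037C-B (61500), and RLI1_depl_EcFMT replicate 1 for YDL096C (696).

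For 8 named features the effect of EcFMT against R42L differed between the strains by the interaction term of the edgeR fit. The log2 interactions were -0.92 for YPL185W, 0.64 for YPL238C, 0.27 for YEL034C-A, 0.41 for YGL123C-A, 0.75 for YGR160W, -1.85 for YER066C-A, -0.91 for YBR178W and -2.95 for YAL064W-B. YPL185W and YEL034C-A, opposite HYP2, had adjusted p = 0.03 and adjusted p = 0.0424 (edgeR).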

How the results depend on the processing

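The 292 higher and 177 lower features became 258 and 209 with TMM over all features, 268 and 195 with RLE, 401 and 114 with library totals, 230 and 171 in DESeq2, 278 and 187 in a fit of all 20 libraries, and 422 and 198 of 4914 with no filter. Testing only the 385 features not in RefSeq gave 109 and 112, since fewer were tested. Of the 469 calls, 435 were shared with TMM over all features, 406 with library totals and 400 with DESeq2, in the same direction. The median log2 change shifted by 0.32 with library totals, by -0.14 with TMM over all features, by -0.10 with RLE, by 0.12 with no filter, by -0.11 in DESeq2 and by -0.18 where RefSeq ORFs were left out. The cause was not tested. The share of calls that were higher was 62.3%, and 55.2%, 57.9% and 77.9% under TMM over all features, RLE and library totals, and 49.3% with RefSeq ORFs left out. Leaving out 1 library gave 267 to 290 higher and 157 to 174 lower. The EcFMT libraries alone gave 216 and 175, and the R42L libraries alone 246 and 146.

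Replicate numbers did not pair the samples, with correlations of deviations between -0.298 and 0.198, so the replicate block is given only here: it called 286 higher and 171 lower, and for the interaction 8 and 12. Interaction calls, 11 and 16, were 24 and 15 with TMM over all features and 12 and 17 with library totals. Leaving out 1 library they ranged from 2 to 15 and from 7 to 19, with 2 and 9 without RLI1_depl_R42L replicate 1, the shallowest library. They were 7 and 9 without NIP1_depl_EcFMT replicate 1, 4 and 7 without NIP1_depl_R42L replicate 2, 6 and 7 without RLI1_depl_R42L replicate 2, 15 and 10 without NIP1_depl_EcFMT replicate 2, and 13 and 10 without RLI1_depl_EcFMT replicate 1. The lone library of a group was then assumed to vary like the others.

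With EcFMT alone and with R42L alone, RLI1_depl minus NIP1_depl was -6.33 and -10.6 percentage points opposite ribosomal protein genes, 1.06 and 0.142 opposite RPP0, 5.07 and 9.76 for RefSeq ORFs, -5.97 and -10.2 for the top 10 features, and -0.0776 and -0.0316 for the ratio of glycolytic to ribosomal protein features. As a share of counts on features not in RefSeq, the RPP0 difference was 1.18 (exact permutation p = 0.0286) and that opposite translation factor genes -0.518 (p = 0.0857, exact permutation). Without 1 library the differences were -4.81 to -4.57 opposite glycolytic genes, -9.19 to -7.72 opposite ribosomal protein genes, 0.419 to 0.806 opposite RPP0, -1.01 to -0.664 opposite translation factor genes, 6.63 to 8.24 for RefSeq ORFs, -8.77 to -7.25 for the top 10 features and -0.0625 to -0.0465 for the ratio. The RPP0 difference reached p = 0.0286 (exact permutation) without RLI1_depl_R42L replicate 1. Over ORFs with at least 10 counts, the 0 to 100 nt class had a ratio of 3.82, and 3.66 to 4.01 without 1 library; tandem ORFs had 1.59, and 1.52 to 1.67. With no minimum count, without the largest ORF, or within EcFMT or R42L alone, settings added after seeing the data, the first ratio was 3.38 to 4.26.

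Of 67 named calls, 54 held under all alternatives run. YGL123C-A, called at -0.24, turned to 0.09 with library totals. Depth limits low features: a feature at 0 in NIP1_depl has only a lower bound, and RLI1_depl holds the least deep libraries.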
